A study of Arabidopsis thaliana with 6 samples.

Results

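The genes described here encode proteins with the DUF538 domain, a plant protein domain whose biochemical role is not settled, and the set is led by AT1G61667. It was made up of 10 listed loci, of which 9 could be read on the array and 1, AT1G30020, was not analysed here, out of 16548 genes that could be named and tested. AT1G61667 was chosen by its difference between the thiosulfate and sulfate arrays in these same data, and the other loci by family, with earlier results of the series known. Its difference is therefore given as a description without a p-value. Where a gene had several array rows, the row with the highest mean signal stood for it, but each of the 9 loci had a single row of its own. A further row that names AT1G55265 together with AT1G55270 was left out.

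All samples were whole roots of Arabidopsis thaliana Col-0 wild type, the usual laboratory strain, 8 weeks old, raised hydroponically at 22 °C in short days on MGRL medium with its sulfate exchanged for chloride. In the thiosulfate group 150 µM sodium thiosulfate was the sulfur source, and in the sulfate group it was 300 µM sodium sulfate. Each thiosulfate ion holds 2 sulfur atoms, so the sulfur offered was equal. The concentration of the added sodium salt differed with the group and cannot be told apart from the form of sulfur. Each group had 3 one-colour Affymetrix arrays, labelled as biological replicates without a statement on separate cultures. A p-value therefore reflects only how these samples spread, which may be technical. The comparison asks whether root transcripts of the family differ between plants fed the more reduced and the more oxidised sulfur compound.

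DUF538 proteins are small proteins of land plants that are encoded by many genes in each genome. The best known Arabidopsis member is SVB (SMALLER WITH VARIABLE BRANCHES, AT1G56580), named for a mutant whose leaf hairs, or trichomes, are small and branch irregularly. SVB and a close relative have been linked to phosphoinositide lipids and to the unfolded protein response, the signalling that answers misfolded protein in the endoplasmic reticulum. Purified DUF538 proteins have also been proposed to act on chlorophyll. No role in sulfur nutrition is part of this background, and the individual roles of the 10 listed loci are not known well enough to be given here.

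Signals are log2 values after RMA, a procedure that corrects background, equalises the distribution of values across arrays and merges the probes of a transcript. A step of 1 on this scale is a doubling. Signals of different genes come from different probes and do not rank transcript amounts, so differences are taken only within a gene. Dim and bright refer to where a gene's listed signal falls among all genes, not to its amount of transcript. The array medians over named genes lay between 2.36 and 2.39 in thiosulfate and between 2.34 and 2.39 in sulfate. Medians over every row of the array, named or not, did separate by group. Thiosulfate replicates 1, 2 and 3 had 2.48, 2.42 and 2.41, whereas sulfate replicates 1, 2 and 3 had 2.37, 2.38 and 2.35. The part of this offset in the family's count of higher means was not tested. Correlations between arrays were 0.980 to 0.983 within groups and 0.974 to 0.982 between them. The number of arrays limits the precision, and the 95% interval of a gene's difference typically reached 0.39 to either side. Few tissue markers could be read. Of 6 root hair markers 2 were measured, the expansins EXPA7 and EXPA18. They averaged 2.86 and 2.67 in thiosulfate, against 2.61 and 2.36 in sulfate, with overlapping groups (limma adjusted p = 0.782 and 0.749). Of 8 green tissue genes 2 were measured. LHCB4.1 and RCA averaged 2.98 and 3.67 in thiosulfate, against 3.19 and 3.76 in sulfate, with overlapping groups (limma adjusted p = 0.852 and 0.861). Without a detection call these signals do not show whether the transcripts were present. AT5G48940, the 1 measured gene of 6 root cap and meristem markers, averaged 5.26 in thiosulfate and 5.05 in sulfate. Its groups overlapped too (limma adjusted p = 0.693). None of the 6 endodermis and stele markers was among the named genes. Whole roots mix cell types, and fewer cells of a type cannot be told apart from less RNA per cell.

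With thiosulfate as the sulfur source, AT1G61667, which was chosen on this contrast, had a mean 2.30-fold higher than with sulfate. That choice favoured its place as the largest difference of the measured family. The other measured family genes lay between -0.32 and 0.65 on the log2 scale. AT3G07460 and AT2G03350 came next among the listed loci, at 1.57-fold and 1.32-fold higher means in thiosulfate, and AT1G02816 stood at the other end with a 1.25-fold higher mean in sulfate. None of the 8 listed loci other than AT1G61667 passed a limma adjusted p of 0.05, against 2 of the 16548 genes tested (0.0121%). Neither of these 2 genes was among the 22 DUF538 loci considered here. At an unadjusted limma p under 0.05, 2 of the 8 passed, AT2G03350 and AT3G07460, where 10% of all genes did.

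AT1G61667 read 5.64, 4.94 and 5.34 on the thiosulfate arrays, against 4.02, 4.15 and 4.13 on the sulfate arrays. Every thiosulfate array lay above every sulfate array, with a gap between the lowest thiosulfate and the highest sulfate value that exceeded the whole sulfate range. Its means were 5.31 ± 0.35 in thiosulfate and 4.102 ± 0.069 in sulfate (SD, n = 3 each), so the thiosulfate arrays also spread more widely. The log2 difference was 1.20 (SE 0.19, 95% interval 0.78 to 1.63), the 27th highest of all genes tested. These values chose the gene and support nothing further. With any 1 array left out the difference ran from 1.04 (without thiosulfate replicate 1) to 1.39 (without thiosulfate replicate 2).

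**Figure D1:**
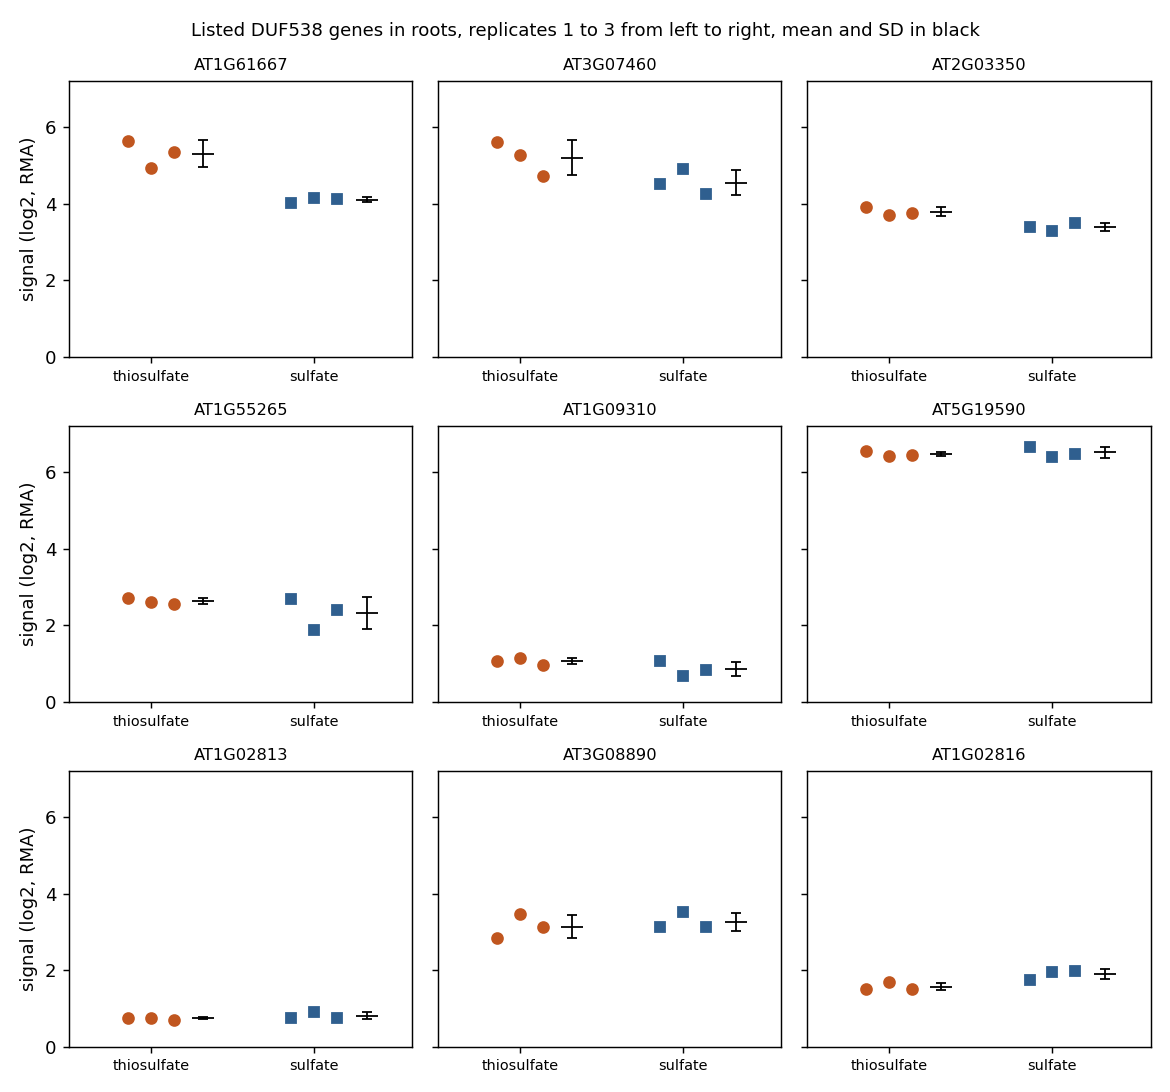
Log2 RMA signal (vertical axes) of the 9 measured DUF538 loci on each array, with thiosulfate as circles and sulfate as squares, and the group mean with its SD in black (n = 3). AT1G61667, which was chosen on this contrast, lies between 4.94 and 5.64 in thiosulfate and between 4.02 and 4.15 in sulfate. The groups overlap in 6 of the other 8 loci. Of all genes, 7.11% had non-overlapping groups with thiosulfate higher and 7.57% with thiosulfate lower.

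AT2G03350 was the other listed locus whose thiosulfate arrays all lay above the sulfate arrays. Its signal was 3.92, 3.72 and 3.75 in thiosulfate, against 3.39, 3.29 and 3.50 in sulfate. Both groups were tight, and the separation came from a modest shift rather than from a single array. Means were 3.80 ± 0.11 in thiosulfate and 3.39 ± 0.10 in sulfate (SD, n = 3 each). The log2 difference of 0.40 (SE 0.14, 95% interval 0.08 to 0.72) did not pass the correction over all genes (limma adjusted p = 0.405). Among the 8 loci this made 1 with non-overlapping groups and a higher thiosulfate level, where 7.11% of all genes had that pattern.

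AT3G07460 had the larger difference but the wider spread. It read 5.61, 5.27 and 4.72 in thiosulfate, against 4.51, 4.90 and 4.25 in sulfate. The first pair of thiosulfate arrays lay above all sulfate arrays, but thiosulfate replicate 3 lay below sulfate replicate 2, so the groups overlapped. The log2 difference was 0.65 (SE 0.25, 95% interval 0.08 to 1.21, limma adjusted p = 0.433).

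The next gene along the chromosome, AT3G07470, is a DUF538 gene too. It stood at 5.45, 5.45 and 4.72 in thiosulfate, against 4.71, 4.95 and 4.66 in sulfate. Its arrays took the same order as those of AT3G07460 apart from a swap of thiosulfate replicates 1 and 2, which were highest for both genes, and thiosulfate replicate 3 again lay below sulfate replicate 2. The log2 difference was 0.43 (95% interval -0.05 to 0.92, limma adjusted p = 0.542). Without thiosulfate replicate 3 the differences were 0.89 for AT3G07460 (limma adjusted p = 0.304) and 0.68 for AT3G07470 (limma adjusted p = 0.2998). Whether probes of either gene also bind transcripts of the other was not tested.

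AT1G02816 went the other way. Its signal was 1.52, 1.68 and 1.52 in thiosulfate, against 1.74, 1.94 and 1.99 in sulfate, with no overlap. It was the 1 of the 8 loci with non-overlapping groups and a lower thiosulfate level, where 7.57% of all genes had that pattern. Means were 1.57 ± 0.10 in thiosulfate and 1.89 ± 0.13 in sulfate (SD, n = 3 each). The log2 difference of -0.32 (SE 0.14, 95% interval -0.64 to 0.01) did not pass (limma adjusted p = 0.509).

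Its direct neighbour AT1G02813 gave almost no reading. The listed value was 0.76, 0.76 and 0.71 in thiosulfate, against 0.76, 0.92 and 0.76 in sulfate, and 4 of the 6 arrays carried the identical number. Its mean was in the lowest 2.02% of genes, where no background bound was used, so the difference of -0.07 (95% interval -0.38 to 0.24, limma adjusted p = 0.896) is one of listed values and does not measure a transcript change.

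A last adjacent pair, AT4G02360 and AT4G02370, lay outside the 10 listed loci. AT4G02360 was dim, at 1.34, 1.19 and 1.89 in thiosulfate, against 1.29, 1.23 and 1.47 in sulfate. AT4G02370, named SVBL among the further DUF538 loci, read 4.89, 4.59 and 4.78 in thiosulfate, against 4.28, 4.84 and 4.50 in sulfate. Groups overlapped in both genes, and the differences of 0.14 and 0.22 had limma adjusted p-values of 0.852 and 0.735. That of AT4G02360 turned to -0.07 without thiosulfate replicate 3, and that of AT4G02370 was 0.08 without sulfate replicate 1 and 0.36 without sulfate replicate 2.

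**Figure D2:**
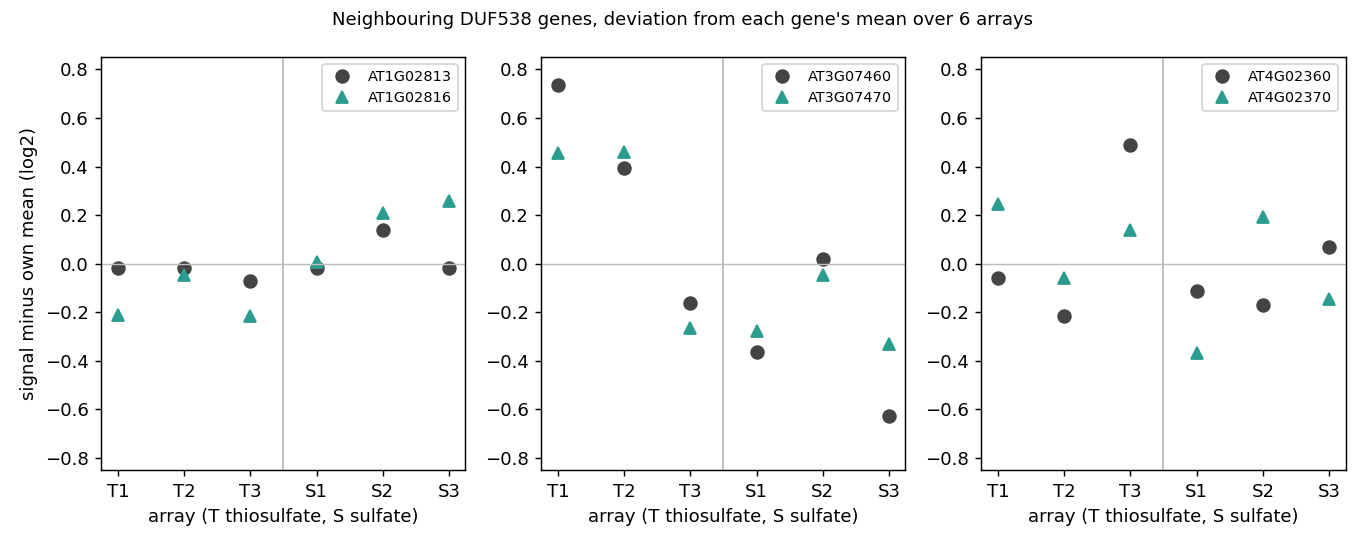
Deviation of the log2 signal from each gene's own mean over 6 arrays (vertical axes), for the 3 pairs of DUF538 genes that are direct neighbours, by array, with thiosulfate replicates T1 to T3 left of sulfate replicates S1 to S3. AT3G07460 and AT3G07470 are both highest on T1 and T2 and both below their means on T3, while AT4G02360 and AT4G02370 take different orders.

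The remaining 4 measured loci of the list differed little or were dim. AT1G55265 read 2.71, 2.60 and 2.55 in thiosulfate, against 2.69, 1.87 and 2.40 in sulfate. Its difference of 0.30 (95% interval -0.16 to 0.77, limma adjusted p = 0.671) rested largely on sulfate replicate 2, without which it was 0.08 (limma adjusted p = 0.944). AT1G09310 read 1.08, 1.15 and 0.98 in thiosulfate, against 1.06, 0.68 and 0.84 in sulfate. This placed it in the dimmest 20% of genes, which ends at a mean of 1.18, and its difference was 0.21 (95% interval -0.14 to 0.56, limma adjusted p = 0.689), or 0.12 without sulfate replicate 2.

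AT3G08890 read 2.84, 3.45 and 3.12 in thiosulfate, against 3.12, 3.53 and 3.12 in sulfate. The arrays of the 2 groups were interleaved, with a difference of -0.12 (95% interval -0.56 to 0.33, limma adjusted p = 0.878) that turned to 0.03 without thiosulfate replicate 1 and to 0.02 without sulfate replicate 2. AT5G19590 was bright and even across the arrays. It read 6.54, 6.42 and 6.44 in thiosulfate, against 6.66, 6.40 and 6.47 in sulfate. Its difference was -0.04 (95% interval -0.36 to 0.28, limma adjusted p = 0.948), or 0.035 without sulfate replicate 1.

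The listed loci were set beside the other genes of the family. From 12 further DUF538 loci written down from general knowledge, 11 were measured, and SVB itself was not analysed here. None of the 11 passed a limma adjusted p of 0.05 (smallest adjusted p 0.542, for AT3G07470), none had an unadjusted p under 0.05, and in none did the groups separate. Of all genes, 10% had an unadjusted limma p under 0.05. Groups separated with thiosulfate higher in 7.11% of all genes and with thiosulfate lower in 7.57%. Among 11 loci, counts of 0 lie near these shares. Of these 11, 9 had a higher mean in thiosulfate and 2 a lower one, with differences from -0.11 in AT5G49600 to 0.43 in AT3G07470 and a median of 0.14. The brightest, AT5G19860, read 6.27, 6.08 and 6.29 in thiosulfate, against 6.15, 5.94 and 6.05 in sulfate, a difference of 0.16 (limma adjusted p = 0.752). AT4G24130 averaged 4.92 ± 0.35 in thiosulfate and 4.72 ± 0.28 in sulfate (SD, n = 3 each), with arrays of both groups at 4.52. AT5G01610, AT5G16380 and AT5G37070 had differences of 0.15, 0.04 and -0.0031, of which the last pair changed sign with some arrays left out. AT5G46230 and AT5G54530 had differences of 0.12 and 0.10, AT5G54530 being in the dimmest 20% of genes.

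Of the 9 measured loci of the list, 5 had a higher mean in thiosulfate and 4 a lower one, with a median difference of 0.21, which was 0.080 without sulfate replicate 2. Without AT1G61667 the split was 4 and 4 and the median 0.08. Over the 19 measured family genes other than AT1G61667, 13 (68.4%) had a higher mean in thiosulfate and the median difference was 0.14. Over all 16548 genes, 47.1% had a higher mean in thiosulfate and the median was -0.02. Signal moves with this share: among the 8274 genes above the median signal, 58.3% had a higher mean in thiosulfate and the median was 0.05, and 12 of the 19 family genes lay there. The part of signal level in the family's count was not tested.

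**Figure D3:**
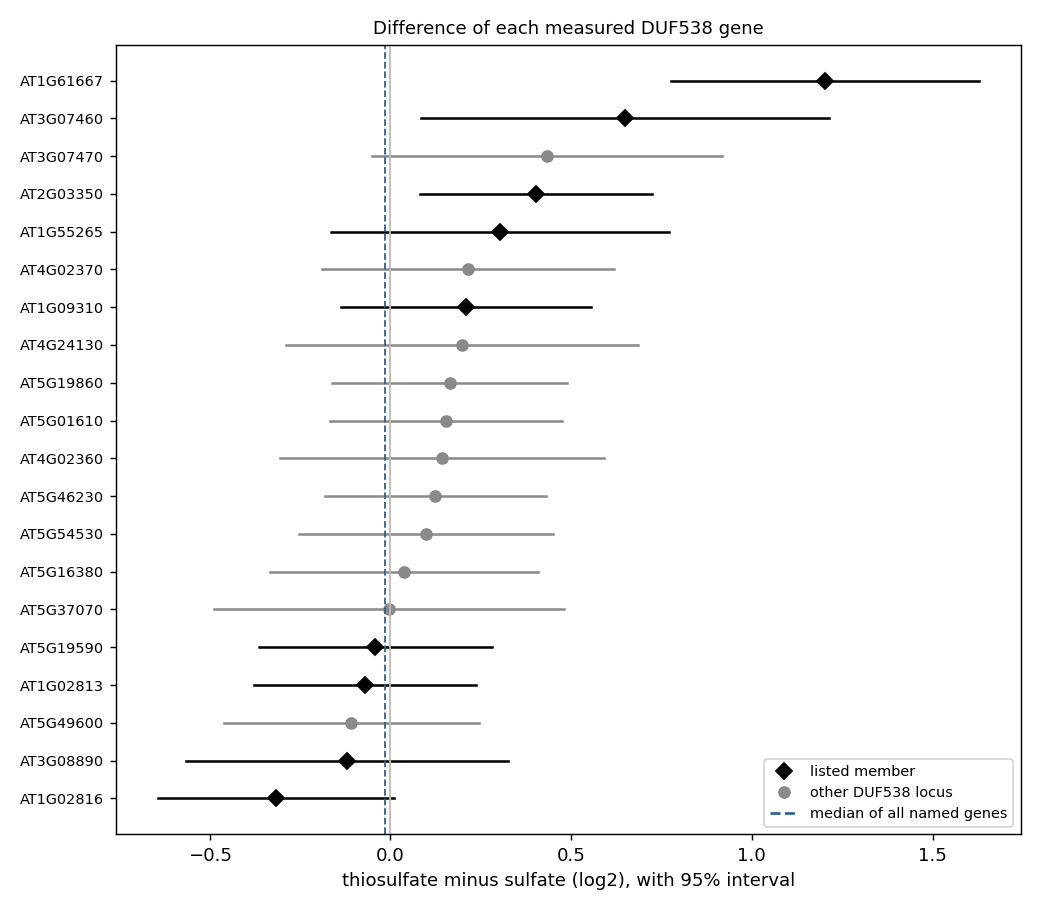
Thiosulfate minus sulfate difference (log2, horizontal axis) with its 95% interval for the 20 measured DUF538 genes, listed members as black diamonds and other family loci as grey circles, with a dashed line at the median of all named genes (-0.02). AT1G61667 is at the top at 1.20, but it was chosen on this contrast, so its interval is only a description. Among the other genes, every interval except those of AT3G07460 and AT2G03350 includes 0.

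**Figure D4:**
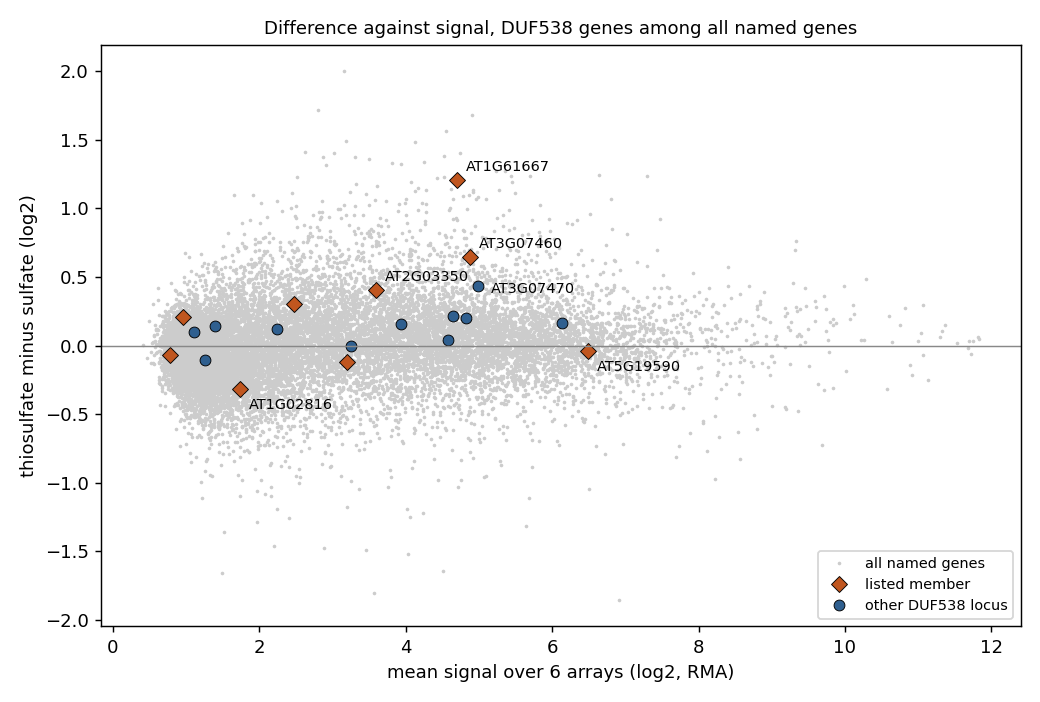
Thiosulfate minus sulfate difference (log2, vertical axis) against the mean signal over 6 arrays (log2, horizontal axis) for all 16548 named genes (grey), listed DUF538 members (diamonds) and other DUF538 loci (circles). The family spans mean signals from 0.78 to 6.49, and all of it but AT1G61667 lies between -0.32 and 0.65.

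The pattern of AT1G61667 over the 6 arrays was set against that of the 4575 other genes with a standard deviation of at least 0.3. The closest were AT4G35160 (Pearson r = 0.994), AT1G11670 (r = 0.990) and AT3G02630 (r = 0.990). AT4G35160 read 4.33, 3.41 and 3.98 in thiosulfate, against 2.68, 2.75 and 2.75 in sulfate. All 3 genes were highest on thiosulfate replicate 1 and lowest of the thiosulfate arrays on replicate 2, as AT1G61667 was. Of the genes searched, 138 (3.02%) reached r = 0.9, and the 6 arrays fall into 2 groups, so each r mainly carries the group difference. The family was compared without the limit on standard deviation, which neither of the next 2 genes reached. Within it AT2G03350 was nearest to AT1G61667 (r = 0.951) and AT1G02816 most opposed (r = -0.872).

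Processes that background knowledge ties to the family were read through lists of their genes. Of 19 genes of the unfolded protein response 6 were measured. All 6 had lower means in thiosulfate (differences from -0.39 to -0.06, median -0.18), but none passed (smallest limma adjusted p 0.547) and none had an unadjusted p under 0.05. Of all 16548 genes, 8751 had a lower mean in thiosulfate. Among genes above the median signal, where all 6 lay, 58.3% had a higher one. No test was made on the 6 genes as a set. BZIP60, a transcription factor that switches on this response, read 6.61, 6.83 and 6.18 in thiosulfate, against 6.76, 6.91 and 7.11 in sulfate, a difference of -0.39 (95% interval -0.82 to 0.05, limma adjusted p = 0.547), and its groups overlapped. Without thiosulfate replicate 3 the difference was -0.21. Of 13 genes of epidermal patterning and trichome shape 2 were measured: AN, which acts in trichome branching, had a difference of 0.10 (0.029 without thiosulfate replicate 3), and TRY, an inhibitor of trichome fate, had one of 0.16 that turned to -0.08 without thiosulfate replicate 3. Of 9 genes of chlorophyll breakdown NOL, a chlorophyll b reductase, was measured, with a difference of 0.28 (95% interval -0.09 to 0.66, limma adjusted p = 0.61), or 0.17 without sulfate replicate 1. Neither of these lists had a gene past an adjusted p of 0.05.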

How the data were processed

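The deposited log2 values were made by the authors with RMA in Transcriptome Analysis Console 4.0, per the submitters' processing notes. The kind of RMA, the build behind the array and any filters were not given in the sources used here. The table holds 38408 rows on 6 arrays. A platform table gives 1 gene for 16722 rows, several for 759 and does not list 20927. Symbols were updated through RefSeq assembly TAIR10.1 (16574 rows matched), also used for gene neighbours. The highest-mean row per gene left 16548 genes. Groups and replicate numbers come from the titles.

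Differences are thiosulfate minus sulfate, tested with limma 3.58.1 in R 4.3.3 (group term, empirical Bayes, two-sided, Benjamini-Hochberg over all 16548 genes, threshold 0.05). The fit was first tried on simulated data whose changes were larger than any difference of the tested members. That trial does not show whether shifts as small as theirs would be found. Tables and plots used Python 3.11.15, pandas 2.3.3 and matplotlib 3.10.9. The genes named were all 10 listed loci; other DUF538 loci; the 3 genes most correlated with AT1G61667; and, of each list, the member with the smallest p, or all where 3 or fewer were measured. Members and lists were chosen with earlier results of these data known. RefSeq descriptions with domain names and protein sequences were not used here, so the planned comparison of proteins was not made and family membership rests on the list and general knowledge. Alternatives tried were further quantile normalization, median centring, array weights, a robust variance prior with an intensity trend, a replicate block, filters on dim genes, averaged rows, testing every row, other thresholds and leaving out each array. No batch could be tested, since neither slide nor scan date is known here.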

Additional observations from a re-analysis of the deposited data

How the results depend on the processing

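No alternative brought any of the 8 tested members past an adjusted p of 0.05 by limma, nor past 0.1, while 2 had an unadjusted p under 0.05. Over the alternatives the adjusted p of AT2G03350 ran from 0.305 to 0.715 and that of AT3G07460 from 0.304 to 0.769. The median difference of all 9 measured members, AT1G61667 included, was 0.21, against 0.08 without AT1G61667. With AT1G61667 counted it became 0.30 with a mild filter on dim genes, which left 7 members, and 0.35 with a stricter one, which left 6. With 1 array left out it ran from 0.080 to 0.31, again with AT1G61667 counted. AT1G61667 was chosen on this contrast, so these medians rest partly on the choice. Over all genes the 2 calls became 1 after further quantile normalization and 1 with the stricter filter, 0 with every row tested and 0 with the replicate block, and 0 to 2 with 1 array left out. The replicate block changed no call among the members (AT2G03350 0.40, adjusted p = 0.436). Same-numbered arrays deviated from their group means with correlations of 0.056, -0.025 and -0.032, so the numbers were not taken to pair arrays. Some directions turned, among them that of EXPA18, whose difference was 0.31. AT5G16380 was -0.035 after further quantile normalization. With 1 array left out, the range was -0.055 to 0.17 for AT5G16380, -0.28 to 0.031 for AT3G08890, -0.098 to 0.035 for AT5G19590, -0.197 to 0.201 for AT5G37070, -0.065 to 0.29 for AT4G02360, -0.018 to 0.51 for EXPA18, -0.57 to 0.10 for LHCB4.1 and -0.081 to 0.31 for TRY. The cause was not tested. No background bound was available, which limits what dim members show.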
